A study of Mus musculus with 6 samples.

Results

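The genes of ubiquitin conjugating enzymes, ubiquitin ligases and deubiquitinases were examined in C2C12 cells, an established line of mouse myoblasts with both muscle and osteoblast potential. Members were chosen by name and by count. They are the genes whose symbol begins with Trim, Fbxo, Fbxl, Fbxw, Ube2, Ube3, Rnf, Usp, Herc or Hectd, followed by a number where the family uses one, and whose mean raw count over all 6 libraries was at least 5. Ube2c, a mitotic enzyme gene, was left out. Of 330 genes with such a name, 67 were members, out of 22753 gene identifiers in the deposited table. The members comprised 7 Ube2 genes, 2 genes of HECT-type ligases (Hectd2 and Herc1), 20 Rnf, 15 Trim, 10 F-box and 13 Usp genes. Because the mean count chose them, the counts themselves are given as a description. The rule itself does not use the comparison of treated with control cells, but it was set with earlier results of these data known.

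The study sequenced poly-A RNA from 3 control samples with DMSO and 3 that had received a screening hit at 10 µM, both for 2 days. The hit, here called the compound, is a quinolin-2(1H)-one with methyl groups at positions 6 and 8 and, at position 3, a 4-phenyl-1H-imidazol-5-yl group. Control cells received an equivalent volume of the solvent, stated as 1% DMSO in the culture medium. Both groups were grown with fetal bovine serum, and RNA came from 12-well plates. The labels do not state whether the samples of a group were cultured separately. The spread behind each p-value is therefore that between these samples and may be technical.

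Ubiquitin is a small protein that cells attach to other proteins, often to send them to the proteasome. An activating enzyme (E1) passes it to a conjugating enzyme (E2, the Ube2 genes), and a ligase (E3) brings the loaded E2 to the target. HECT-type ligases carry the ubiquitin themselves, whereas RING ligases, which include most Rnf and Trim proteins, hold the E2 next to the target. F-box proteins choose targets for cullin ligases, and Usp proteins remove ubiquitin again. In skeletal muscle the ligases Trim63 (MuRF1) and Fbxo32 (atrogin-1) are known for their part in atrophy.

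The promoters of 4 members are shown because their counts changed with the compound, rising for Rnf214 and Usp16 and falling for Fbxl13 and Trim7, and because each had a mean count of at least 50. Hectd2 and Rnf139 also met both conditions but are not shown, as no promoter sequence of theirs was used here. The sequences are RefSeq's on GRCm38.p6 and run from 250 bases before to 50 bases after an annotated start, 300 bases each. They lie at chr9:45906862-45907161 on the minus strand (Rnf214), chr16:87454735-87455034 on the plus strand (Usp16), chr5:21645556-21645855 on the minus strand (Fbxl13) and chr11:48825888-48826187 on the plus strand (Trim7). Capitals mark GGGCGG on either strand, the GC box, and CACGTG, an E-box.
Rnf214: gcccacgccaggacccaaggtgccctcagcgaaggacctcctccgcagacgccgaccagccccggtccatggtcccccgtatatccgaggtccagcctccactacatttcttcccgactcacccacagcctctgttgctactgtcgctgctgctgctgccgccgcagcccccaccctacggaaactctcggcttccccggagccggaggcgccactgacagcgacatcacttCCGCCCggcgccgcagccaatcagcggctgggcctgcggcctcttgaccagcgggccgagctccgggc
Usp16: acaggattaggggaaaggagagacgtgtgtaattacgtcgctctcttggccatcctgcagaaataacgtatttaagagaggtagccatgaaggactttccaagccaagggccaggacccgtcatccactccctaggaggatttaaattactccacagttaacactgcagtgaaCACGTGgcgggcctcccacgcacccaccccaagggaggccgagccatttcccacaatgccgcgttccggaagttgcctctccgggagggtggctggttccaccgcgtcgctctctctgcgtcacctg
Fbxl13: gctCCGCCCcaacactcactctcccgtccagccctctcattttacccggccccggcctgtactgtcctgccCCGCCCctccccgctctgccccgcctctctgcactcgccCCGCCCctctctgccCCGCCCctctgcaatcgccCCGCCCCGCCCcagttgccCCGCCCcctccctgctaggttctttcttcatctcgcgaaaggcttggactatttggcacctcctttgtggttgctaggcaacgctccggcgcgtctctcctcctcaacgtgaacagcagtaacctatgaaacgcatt
Trim7: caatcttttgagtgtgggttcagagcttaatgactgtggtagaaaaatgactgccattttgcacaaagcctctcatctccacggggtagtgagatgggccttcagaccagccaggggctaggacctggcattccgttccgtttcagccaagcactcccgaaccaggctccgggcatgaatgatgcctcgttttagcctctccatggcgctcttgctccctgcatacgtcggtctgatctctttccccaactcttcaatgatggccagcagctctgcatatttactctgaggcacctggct

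The Fbxl13 promoter held 7 GC boxes, of which 1 pair shares a base, and the Rnf214 promoter held 1. Usp16 held 1 CACGTG, and the Trim7 window held neither motif. Of all 32851 promoters in the table, 35.7% held a GC box and 7.15% held CACGTG. Of the 71 promoters of the 51 members found in the table, 60.6% and 8.45% did. The wider pattern CANNTG was held by 66.2% of these member promoters against 72.3% of all, and CCAAT by 28.2% against 37.4%. Members were chosen for their counts and the full set was not, so the shares do not compare like sets. These matches describe the sequences and are not shown to be binding sites. At their 5′ ends, Rnf214 overlaps exons of Pcsk7 and Trim7 overlaps exons of Gm12184, both on the opposite strand.

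Total counts ran from 566348 to 952813 in DMSO and from 493406 to 542649 in the compound group. These are sums over the genes of the table. Members held 1.05% to 1.28% of the counts in DMSO libraries and 1.15% to 1.24% in compound libraries. All 8 myoblast and myotube markers had counts, but few: they summed to 81 to 151 in DMSO and 86 to 105 with the compound. Myod1 had 6, 6 and 25 raw counts in DMSO and 2, 3 and 3 with the compound, Pax7 had 18, 13 and 24 and then 9, 11 and 9, and Des had 44, 31 and 57 and then 52, 67 and 49. The 4 fibroblast markers summed to 57 to 67 in DMSO and 18 to 38 with the compound, mostly Col1a2, while Pdgfra did not separate the groups. Of 5 osteoblast markers 3 were at 0 and the sum, nearly all Runx2, was 21 to 57 and 22 to 27. Of 3 neuron markers, Tubb3 alone had counts (0 to 2 and 4 to 10), and leukocyte markers, mostly Cd68, summed to 5 to 12 and 3 to 11. Markers of adipocytes, endothelium and epithelium summed to at most 3 in any library. All these marker counts are raw, and the libraries differ in depth. Scaled library sizes were 576602, 604363 and 1041651 in DMSO and 444212, 472681 and 481999 with the compound. Raw marker counts can therefore overstate or hide a difference between the groups. The part of these markers in the changes below was not tested. In such bulk RNA, fewer cells of a type and less RNA per cell cannot be told apart. DMSO replicate 3 had the largest total and stood apart from the other DMSO libraries for several members, which are given below with and without it.

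Where the counts lie on the genome bears on every value below. Exons of 41 of the 67 members (61.2%) overlap exons of an annotated gene on the opposite strand, and those 41 held 93.8% of the members' counts. Among all annotated genes of the table at or above that mean of 5 both shares were close, 61.9% of genes and 94.1% of counts. Among genes with a matching name under that mean they were 17.3% and 22.1%. The labels call the libraries stranded but name a kit that is sold without strand marking, and the strand setting of the counting is not given in the sources used here. For overlapping pairs, reads of a gene and of its opposite-strand neighbour therefore cannot be told apart, and a change is one in the counts that carry a gene's name. In 59 overlaps, 30 joined the 3′ ends of both genes, 14 the 5′ ends, and 15 lay with 1 gene inside the other. The overlaps ran from 31 to 3129 bp, and in 22 members they touched coding bases.

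**Figure D1:**
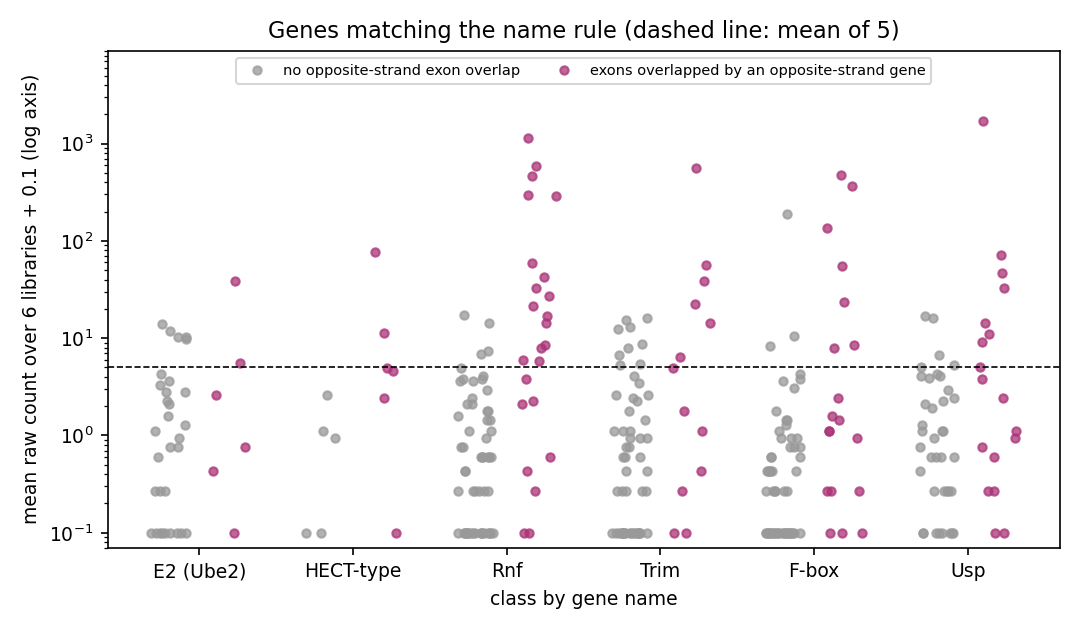
Mean raw count over the 6 libraries plus 0.1 (log axis) of 327 annotated genes matching the name rule, by class, with a dashed line at the mean of 5 that members had to reach. Members without an opposite-strand overlap (grey, 26 genes) lie under a mean of 20, except Fbxw2 at 187, while the highest counts belong to overlapped genes.

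Counts were concentrated in a few names. Usp34 and Rnf146 together held 39.2% of the members' counts and the 10 members with the most counts held 83.6%. The median member had a mean count of 14.3, and 41 members were under 20. Per kb of annotated exon, the mean count was 255 for Rnf146, 107 for Fbxl2, 98.1 for Rnf214 and 92.3 for Usp34. At the lower edge of the choice, Usp35 and Usp45 had a mean of exactly 5 and Usp8 of 5.17, while Rnf39 and Trim34a stood just outside it at 4.83 each. Of all genes with a matching name, 93 had no count in any library.

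Of the 67 members, 41 had enough counts to be tested. The threshold of 0.05 on the adjusted p (edgeR, quasi-likelihood) was passed by 7 of them. This is 17.1% of the tested members, near the background of 18.0% over all 2440 tested genes. Counts under 5 members rose with the compound (Hectd2, Rnf181, Rnf214, Usp16 and Rnf139), where 7.50% of all tested genes rose. Of these, Rnf181 was tested only because its compound libraries passed the filter, so its difference was built in. Counts under 2 members fell with the compound (Fbxl13 and Trim7), where 10.5% of all tested genes fell. The median log2 change was 0.06 over the tested members and 0.02 over all tested genes. In 15 tested members, 36.6%, no compound library lay within the range of DMSO or the reverse, where 36.4% of all tested genes were apart. Without DMSO replicate 3, 7 members were higher and 4 lower of 42 tested, 26.2% against 24.2% of all genes. Leaving out compound replicate 1 gave 2 higher and 1 lower, 6.38% against 8.80%. Leaving out compound replicate 2 gave 3 and 1, 8.16% against 9.37%, and compound replicate 3 likewise, 8.16% against 10.5%. Leaving out DMSO replicate 2 gave 4 and 1, 10.4% against 11.3%. Among genes averaging 50 counts or more, 7 of 16 members were called, 43.8% against 27.9%. These 7 differ from those above: Fbxl2 passed in that fit, and Rnf181, with a mean count of 8.5, was not in it. With no filter, 8.96% of members were called against 3.44% of all 12548 genes then tested. Without a filter the sets are unlike, as members were chosen for a mean of at least 5 and the other genes were not.

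**Figure D2:**
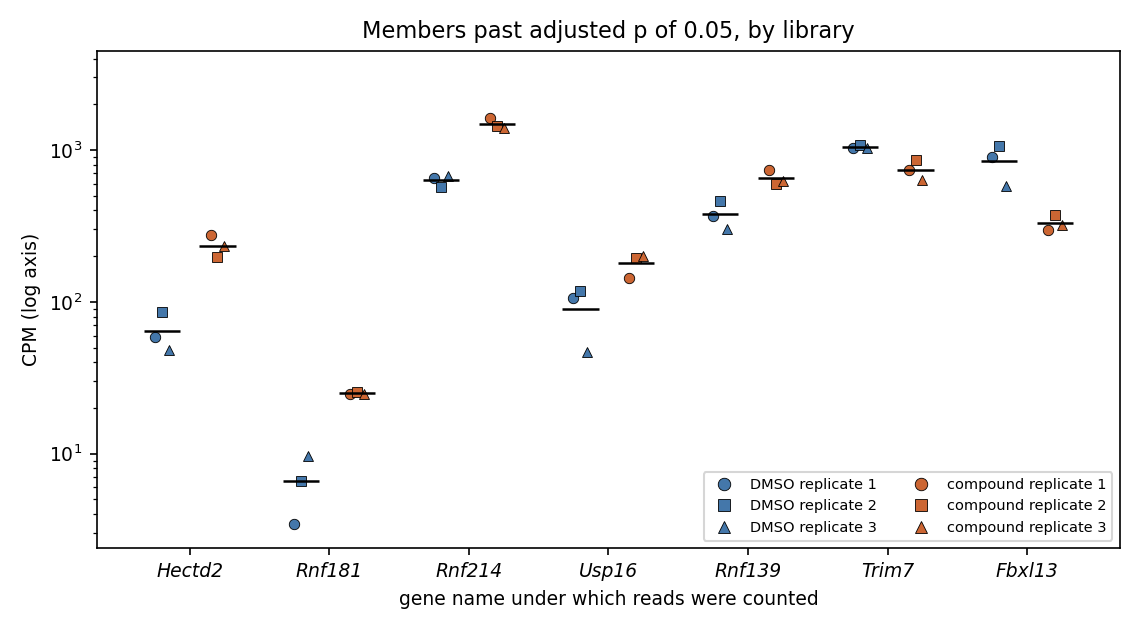
CPM (counts per 1e6 of the scaled library, log axis) of the 7 members past the threshold in each of the 3 DMSO and 3 compound libraries, with horizontal lines at group means. The groups do not overlap for any of the 7, but these were chosen by the same comparison, so this is no separate result. For Rnf181 the filter built in a difference. Hectd2 rises from a mean of 64.3 to 235 CPM while Fbxl13 falls from 847 to 328 CPM.

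None of the 5 tested E2 genes passed the threshold, where 18.0% of all tested genes did. Their log2 changes ran from -0.27 to 0.71. Ube2e1, which had the most counts among them, stood at 41.6, 67.8 and 56.6 CPM in DMSO replicates 1 to 3 and at 69.8, 69.8 and 91.3 CPM with the compound. These groups lie apart by a narrow margin, and the log2 change was 0.47 ± 0.29 (SE, edgeR adjusted p = 0.290). Its exons overlap 718 bp of Nkiras1 on the opposite strand. Ube2r2, a partner of cullin ligases, had a log2 change of 0.71 ± 0.56 and Ube2g1 of -0.04 ± 0.47, and in both the groups overlap. Ube2m, which conjugates the ubiquitin-like NEDD8 to cullins, had 7, 8 and 27 counts in DMSO and 7, 5 and 7 with the compound, too few to test.

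Among HECT-type ligases, counts under Hectd2 (ENSMUSG00000041180, chromosome 19, 36554639 to 36621135, plus strand) rose the most of any tested member. They stood at 59.0, 86.0 and 48.0 CPM in DMSO and at 275, 197 and 232 CPM with the compound. Every compound library was more than double the highest DMSO library. The mean went from 64.3 ± 19.6 to 235 ± 39.0 CPM (SD, n = 3), 3.70-fold, or 1.89 ± 0.25 on the log2 scale (SE, edgeR adjusted p = 0.000112). Exons of the long non-coding gene Hectd2os overlap 1834 bp of Hectd2, 116 bp of them coding, and Hectd2os has no row in the table. Herc1, a giant ligase gene with RCC1-like repeats, had a log2 change of -0.46 ± 0.51, and its groups overlap (edgeR adjusted p = 0.594).

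In the Rnf genes, 3 of 14 tested members rose and none fell, where 7.50% of all tested genes rose and 10.5% fell. Of the 3, Rnf181 was tested only through its compound libraries. The log2 changes of the 14 were above 0 in 7 and below 0 in 7, with a median of 0.006. Rnf214 (ENSMUSG00000042790, chromosome 9, 45863425 to 45906894, minus strand), a RING finger gene, stood at 656, 568 and 671 CPM in DMSO and at 1614, 1445 and 1400.4 CPM with the compound. The spread within each group was small beside the gap between them. The mean rose 2.35-fold, from 631 ± 55.8 to 1486.5 ± 113 CPM (SD, n = 3), with a log2 change of 1.23 ± 0.15 (SE) and the smallest adjusted p of the members, 3.77e-05 in edgeR. Its 3′ end overlaps 975 bp of the beta-secretase gene Bace1 and its 5′ end overlaps 415 bp of the convertase gene Pcsk7. No coding base of Rnf214 lies in either overlap.

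Rnf139 encodes a ligase of the endoplasmic reticulum membrane (TRC8) with a sterol-sensing domain. Its counts (ENSMUSG00000037075, chromosome 15, 58889229 to 58902390, plus strand) stood at 366, 462 and 301 CPM in DMSO and at 738, 601 and 620 CPM with the compound. All compound libraries lie above all DMSO libraries, and the mean rose 1.74-fold from 376 ± 80.6 to 653 ± 74.4 CPM (SD, n = 3, edgeR adjusted p = 0.00767). Exons of Tatdn1 overlap 1140 bp of Rnf139, 201 bp of them coding. Without compound replicate 1 the log2 change was 0.71 and the adjusted p 0.0635 in edgeR.

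Rnf181, another RING ligase gene, had few counts: 2, 4 and 10 in DMSO and 11, 12 and 12 with the compound. Its log2 change was 1.81 ± 0.52 (SE, edgeR adjusted p = 0.0247). It entered the test only through the compound libraries, none of the DMSO libraries reaching the minimum of 18.0 CPM of the library total, so a difference was built into its being tested. The call was lost without any single library other than DMSO replicate 3, with an adjusted p of 0.0702 to 0.108 in edgeR, and with no filter on low counts. Its overlap with Tmem150a is 49 bp long.

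Other Rnf genes did not pass. Rnf146 encodes a ligase that recognises poly-ADP-ribose and acts on axin in Wnt signalling. It stood at 2452, 2191 and 1060 CPM in DMSO and at 2206, 1999 and 2168 CPM with the compound. DMSO replicate 3 is far under every other library (log2 change 0.16 ± 0.23, SE, edgeR adjusted p = 0.670), and without it the log2 change was -0.14 ± 0.08. Rnf24 had a log2 change of -0.10 ± 0.15 and Rnf141 of 0.13 ± 0.17, and their groups overlap. Rnf123, the gene of a ligase of the cell cycle inhibitor p27, was lower with the compound in every library, at 92.2 to 144 CPM against 72.6 to 83.3 CPM (log2 change -0.57 ± 0.25, edgeR adjusted p = 0.139). Without DMSO replicate 3 it passed at -0.72 ± 0.26 (edgeR adjusted p = 0.0330). Rnf20 and Rnf40, partners in the ubiquitination of histone H2B, had mean counts of 17.3 and 5.83. Rnf20 had a log2 change of 0.44 ± 0.47, and Rnf40 was not tested. Rnf220 entered the test only through the DMSO libraries and did not pass.

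**Figure D3:**
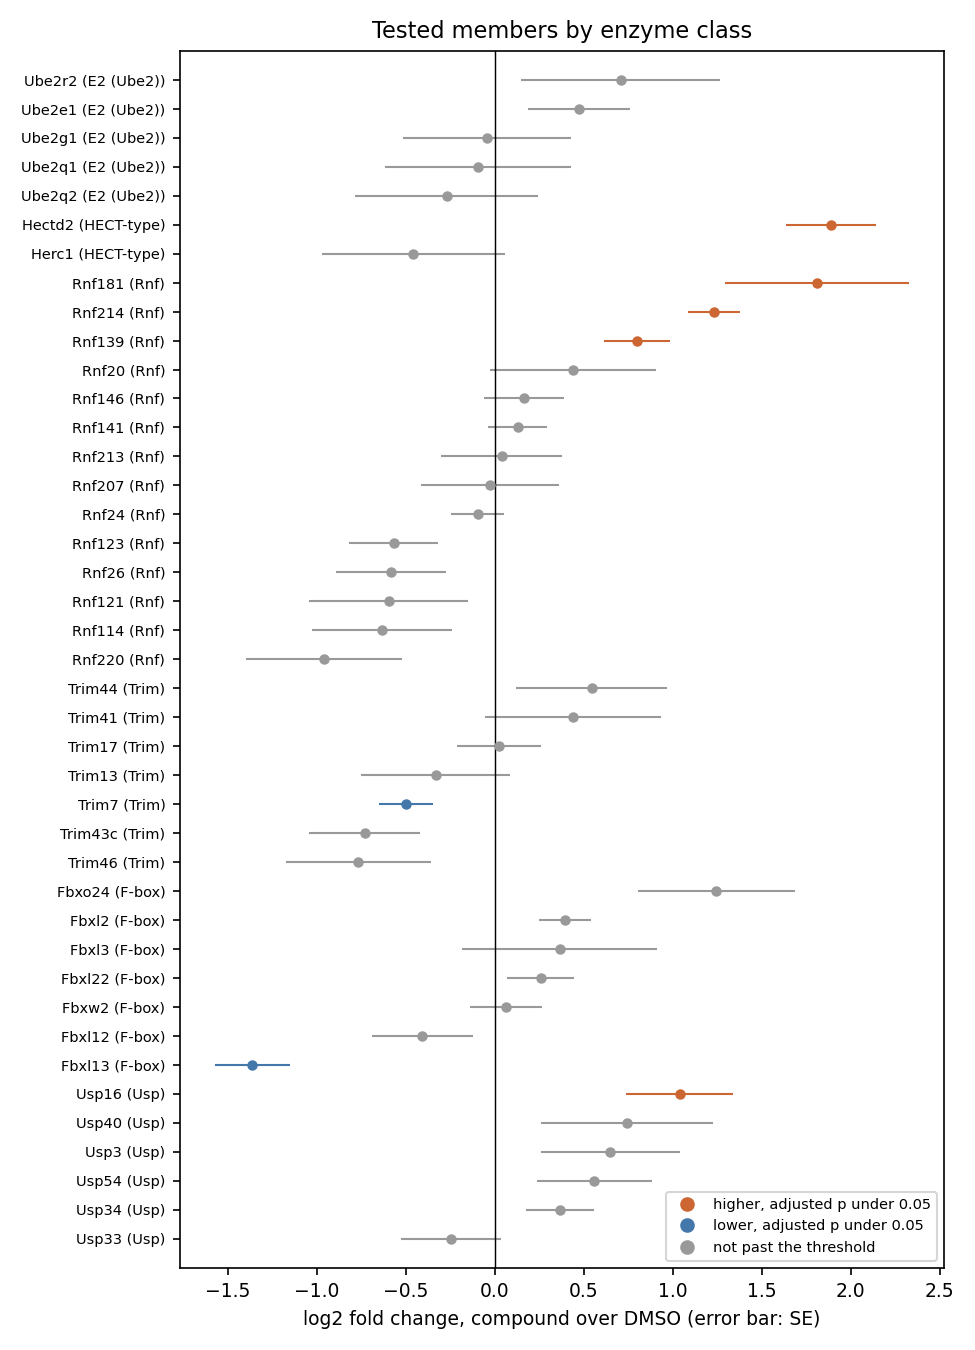
Log2 fold change of the compound over DMSO with its standard error for the 41 tested members, grouped by class, orange for those that rose and blue for those that fell at an adjusted p of 0.05. Changes run from -1.36 for Fbxl13 to 1.89 for Hectd2, and the error bars are widest for members with few counts.

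Of 7 tested Trim genes, Trim7 fell and the other 6 did not pass, where 10.5% of all tested genes fell. Trim7 (ENSMUSG00000040350, chromosome 11, 48826140 to 48852209, plus strand) encodes a RING protein that binds glycogenin, the primer of glycogen synthesis. It stood at 1023, 1080.5 and 1037 CPM in DMSO and at 738, 853 and 635 CPM with the compound. The DMSO libraries were close together and all above the compound libraries. The mean was 1.41-fold lower, 742 ± 109 against 1047 ± 29.9 CPM (SD, n = 3), with a log2 change of -0.50 ± 0.15 (SE, edgeR adjusted p = 0.0345). The call was lost without any single library other than DMSO replicate 3, with log2 changes of -0.41 to -0.62 and an adjusted p of 0.0528 to 0.180 in edgeR. The antisense gene Gm16170, which has no row in the table, overlaps 491 bp of Trim7, 364 bp of them coding. Gm12184 overlaps a further 140 bp at the start and had at most 7 counts in a library.

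Trim17 had a log2 change of 0.03 ± 0.24, with 81.1 to 102 CPM in DMSO and 86.7 to 106 CPM with the compound. Trim43c had a log2 change of -0.73 ± 0.31 (SE, edgeR adjusted p = 0.125). Trim43a, Trim43b and Trim43c are close copies of each other on chromosome 9, so reads may have been divided among them and their separate counts are uncertain. Trim28, a corepressor of transposable elements, had 4, 7 and 17 counts in DMSO and 3, 6 and 3 with the compound and was not tested.

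Among F-box genes, 1 of 7 tested members fell, where 10.5% of all tested genes fell. Fbxl13 (ENSMUSG00000048520, chromosome 5, 21483847 to 21645605, minus strand), an F-box gene with leucine-rich repeats, stood at 893, 1069 and 579 CPM in DMSO and at 295, 370.2 and 319.5 CPM with the compound. DMSO replicate 3 lies nearest to the compound libraries but still above all of them. The mean fell 2.57-fold, from 847 ± 248 to 328 ± 38.4 CPM (SD, n = 3), with a log2 change of -1.36 ± 0.21 (SE, edgeR adjusted p = 0.000431). Without DMSO replicate 3 the log2 change was -1.59. Lrrc17 lies inside Fbxl13 on the opposite strand and shares 161 bp of its coding exons. Counts under Lrrc17 were 0 in all DMSO libraries and 4, 2 and 2 with the compound.

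Fbxl2, which encodes an F-box protein anchored to membranes by a lipid, stood at 728, 667 and 708 CPM in DMSO and at 1015, 844 and 909 CPM with the compound. All compound libraries were higher, and the log2 change of 0.40 ± 0.15 missed the threshold (SE, edgeR adjusted p = 0.0766). It passed without DMSO replicate 3 (adjusted p = 0.00556) and when testing was limited to means of 50 or more (0.0483), both in edgeR. Fbxo24 also lay apart, with 6.62 to 36.5 CPM in DMSO and 52.9 to 63.0 CPM with the compound (log2 change 1.25 ± 0.44, edgeR adjusted p = 0.0653). It passed without DMSO replicate 3 (0.00398) and with the replicate number as a block (0.0236), both in edgeR.

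Fbxw2, the only member with more than 20 counts on average and no opposite-strand overlap, had a log2 change of 0.06 ± 0.20. Fbxl22, the gene of an F-box protein of the sarcomere, had one of 0.26 ± 0.19. Its 3′ end shares 317 bp with that of Herc1, itself a member, so reads of these members cannot be told apart there. Fbxl12 stood at 128, 124 and 69.1 CPM in DMSO and at 90.0, 65.6 and 83.0 CPM with the compound (log2 change -0.41 ± 0.28, edgeR adjusted p = 0.362), and without DMSO replicate 3 it passed at -0.67 ± 0.25 (0.0448).

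Of 6 tested deubiquitinase genes, Usp16 rose, where 7.50% of all tested genes rose. Usp16 (ENSMUSG00000025616, chromosome 16, 87454703 to 87483517, plus strand) encodes an enzyme that removes ubiquitin from histone H2A. It stood at 106, 117 and 47.0 CPM in DMSO and at 144, 195 and 201 CPM with the compound. DMSO replicate 3 is the lowest library, and compound replicate 1 lies nearest to DMSO. The mean rose 2.05-fold, from 90.1 ± 37.7 to 180.0 ± 31.3 CPM (SD, n = 3), with a log2 change of 1.04 ± 0.30 (SE, edgeR adjusted p = 0.0257). Without DMSO replicate 3 the log2 change was 0.68 ± 0.22. The call was lost without any single compound library, with log2 changes of 0.94 to 1.18 (adjusted p of 0.0557 to 0.110 in edgeR).

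Usp34, which encodes a deubiquitinase of axin, had the most counts of all members. It stood at 3106, 3162 and 1679 CPM in DMSO and at 3456, 3520.3 and 3266 CPM with the compound. DMSO replicate 3 is far under the other libraries, and the groups do not overlap. The log2 change was 0.37 ± 0.19 (SE, edgeR adjusted p = 0.208), and without DMSO replicate 3 it was 0.12 ± 0.07. Its exons share 2137 bp with Ahsa2, 762 bp of them coding in Usp34. Usp33 had a log2 change of -0.24 ± 0.28, with overlapping groups. Usp1, which acts on PCNA and FANCD2 in DNA repair, had 10, 20 and 50 counts in DMSO and 4, 5 and 7 with the compound, and was not tested. Without DMSO replicate 1 it was tested, but only through the DMSO libraries, where it was high, and a difference was then built into its being tested (log2 change -1.86 ± 0.51, SE, edgeR adjusted p = 0.0197).

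**Figure D4:**
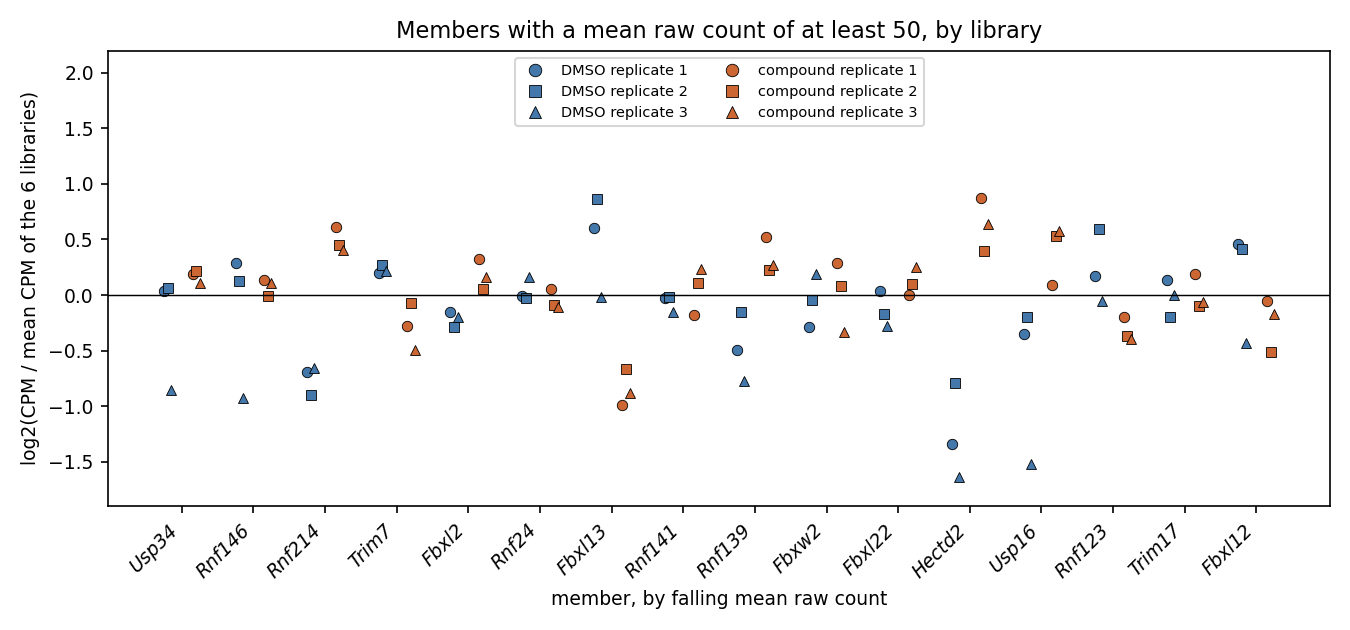
Log2 of CPM over the mean CPM of the 6 libraries for the 16 members with a mean raw count of at least 50, by library. DMSO replicate 3 (blue triangles) lies far below the other libraries for Usp34, Rnf146 and Usp16, while Rnf214 and Trim7 show close DMSO libraries on 1 side of the compound libraries.

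In DMSO replicate 3, 6 of the 16 members with a mean count of at least 50 were at least 1.5-fold under the mean of the other DMSO libraries, and none was as far above it. They were Usp16, Rnf146, Usp34, Fbxl12, Fbxl13 and Hectd2, with log2 ratios of -1.25, -1.13, -0.90, -0.87, -0.76 and -0.60. Among all 1098 genes with such counts, 220 lay as far under. Without this library the log2 change of Hectd2 was 1.68 ± 0.23. The values of the other 5 without it stand beside their results.

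Counts under the opposite-strand neighbours were then set beside those of the members. There were 16 pairs in which both genes were tested, and in none did both pass the threshold. The member passed in 5 pairs and the neighbour in 1, and the log2 changes had the same sign in 11 pairs. Beside Rnf214, counts under Bace1 had a log2 change of 0.23 ± 0.14 and under Pcsk7 of -0.03 ± 0.31. Beside Usp16, Cct8, a chaperonin subunit gene, had one of -0.02 ± 0.27, with 101 CPM in DMSO and 98.3 CPM with the compound. Tatdn1, beside Rnf139, had one of less than 0.01 in size with an SE of 0.56, and Tmem150a, beside Rnf181, one of 0.24 ± 0.25. The neighbour that passed was Echdc1, beside Rnf146. Counts under Echdc1 rose from 746 to 1126 CPM (log2 change 0.60 ± 0.14, SE, edgeR adjusted p = 0.00960). Echdc1 exons overlap 3129 bp of Rnf146, 658 bp of them coding in Rnf146. In all, opposite-strand exons cover 3424 of the 4456 exon bp of Rnf146. No test of the difference between member and neighbour was made.

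**Figure D5:**
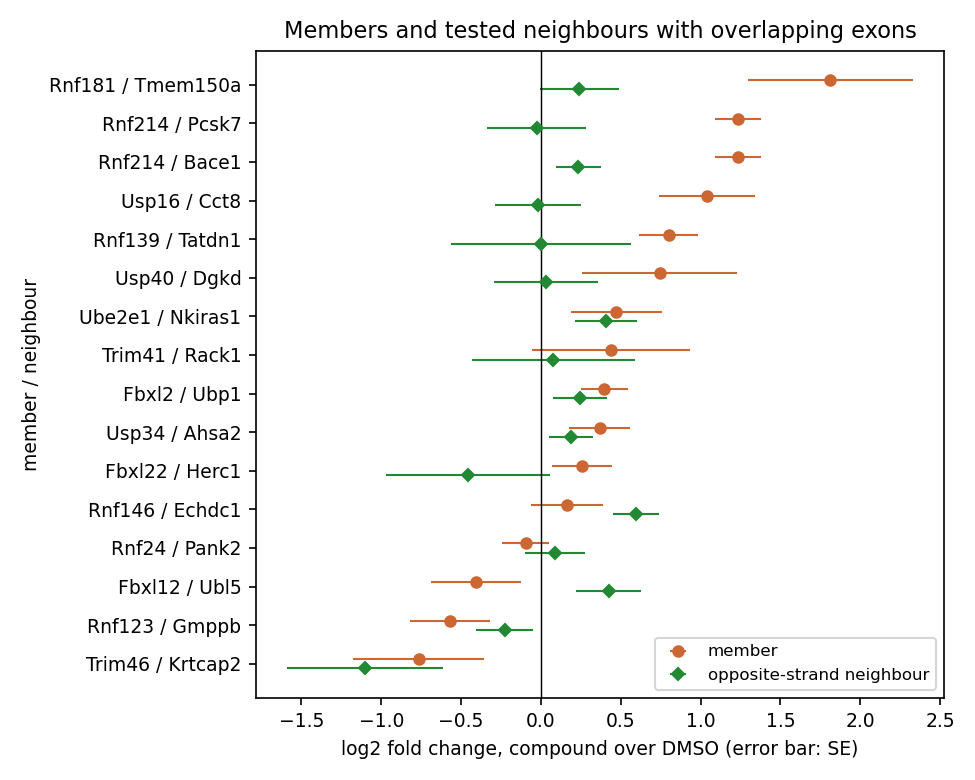
Log2 fold change of the compound over DMSO with its standard error for 16 pairs of a member (orange circles) and a tested opposite-strand neighbour with overlapping exons (green diamonds). Neighbours of Rnf181, Rnf214, Usp16 and Rnf139 lie between -0.03 and 0.24, and these members lie between 0.80 and 1.81. The members named here were picked because they passed the threshold and the neighbours were not, so a gap was built in. Rnf181, at 1.81, was tested only through its compound libraries.

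None of the 11 tested members without an opposite-strand overlap passed, and 7 of the 30 tested members with one did. Over all annotated tested genes, 13.4% of those without and 19.5% of those with an overlap passed. The members without an overlap had a median mean count of 10.2, those with one of 32.7. The standard errors followed the counts: the median was 0.18 on the log2 scale for tested members whose mean count was 100 or more, 0.31 between 20 and 100, and 0.49 under 20. Calls numbered 4 of 11, 2 of 15 and 1 of 15 in these ranges, where 27.7%, 16.6% and 9.40% of all tested genes were called.

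The 26 members that were not tested had mean counts of 5 to 17 and between 0 and 50 counts in a library. Their groups lay apart in 4 (15.4%), Usp1, Usp49, Rnf126 and Usp35, where 248 of the 1182 untested genes in the same range of mean counts were apart. Ube2l3, Rnf4, a ligase of SUMO-modified proteins, and Usp8, a deubiquitinase of endosomes, were among them with mean counts of 5.50, 6.83 and 5.17. The muscle ligases had still fewer counts. Trim63, Fbxo30 and Trim32 had 0 counts in all 6 libraries. By counting error alone, 0 observed reads leave room for up to 3, which is 3.15 to 6.08 per 1e6 counts of these libraries. Fbxo32 had 0, 2 and 8 counts in DMSO and 4, 0 and 0 with the compound. Fbxo21, Fbxo40, Trim54, Trim55 and Trim72 had mean counts of at most 1, and Usp7 and Ube2d3 had 4 and 2.5. Usp18, an interferon-induced deubiquitinase gene, had 1, 4 and 8 counts in DMSO and 0, 1 and 0 with the compound.

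In the rest of the ubiquitin pathway, 208 further genes of 8 lists were in the table and 32 were tested, of which 5 rose and 3 fell, 25.0% against 18.0% of all tested genes. Their median log2 change was less than 0.01, against 0.02 over all tested genes. The ubiquitin genes Ubb and Rps27a had mean counts of 0.667 and 1 and were not tested. Of 6 tested proteasome genes, Psmd7, a subunit of the regulatory lid, rose by 1.04 ± 0.22 (log2, SE, edgeR adjusted p = 0.00381), from 136 ± 32.7 to 277 ± 17.0 CPM (SD, n = 3). It has no annotated opposite-strand exon, and neither has Atg7. The other 6 list genes that passed overlap opposite-strand exons, by 4648 bp in Ubxn6, 1271 in Cdc23, 652 in Ddb2, 308 in Ubr1, 192 in Cul1 and 144 in Crbn. Of 7 tested cullin ligase genes, Ddb2 and Crbn, which encode receptors of CUL4 ligases, rose by 0.55 and 0.59, and Cul1, the scaffold that F-box proteins join, was lower with a log2 change of -0.99.

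Ubr1, the ligase gene of the N-degron pathway, rose from 22.2 ± 5.47 to 61.6 ± 8.53 CPM (SD, n = 3) among 8 tested genes of other ligases. Atg7, an E1-like enzyme of autophagy and the only tested gene of its list, rose by 0.60 on the log2 scale. Of 4 tested anaphase-promoting complex genes, Cdc23 was lower at -1.20 ± 0.24 (edgeR adjusted p = 0.00311), and its DMSO libraries were spread widely, 2732 ± 1118 CPM (SD, n = 3). Ubxn6, an adaptor of the p97 segregase, was lower at -1.33 ± 0.16 (edgeR adjusted p = 5.09e-05). None of 3 tested deubiquitinases outside the Usp family passed, where 18.0% of all tested genes did. Their log2 changes were -0.85 for Otub1, 0.75 for Otub2 and -0.03 for Zranb1.

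The authors' deposited table, whose columns are named as DESeq2 names them, listed an adjusted p for 66 of the 67 members and 7 under 0.05, where 13.1% of all its genes with an adjusted p were. In the authors' deposited table the 7 were Rnf214, Hectd2, Fbxl13, Trim7, Fbxl2, Rnf139 and Rnf181. Usp16 had an adjusted p of 0.0951 in the authors' deposited table, and Usp34 had none.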

How the data were processed

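Per the submitters' processing notes, reads were handled with STAR 2.3.0e and HTSeq 0.6.0 on mm10. The annotation release is not given in the sources used here. All tests used the raw read counts that the authors deposited for each gene and library. The authors also deposited a normalised signal, which is the count divided by 1 size factor per library. Per the file headers, whose column names are those of DESeq2, the table also holds log2 fold changes, a test statistic (score) and p-values, and these deposited values are printed only where the authors' table is named. The table held 24725 rows and 22753 identifiers, 930 of them repeated over several rows of identical counts and used once.

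Exon overlaps were taken from GENCODE M21, which held 21854 (96.0%) of the identifiers. Start and end in the table equalled those of GENCODE M21 for 49 of the 67 members, and coordinates are those of the table. The test was the two-sided quasi-likelihood F test of edgeR 4.0.16 in R 4.3.3, after TMM scaling and a filter (filterByExpr, minimum count 10, using the groups). P-values were adjusted by Benjamini-Hochberg over all 2440 tested genes and called at 0.05. Standard errors were derived from F and the log2 change. CPM are per 1e6 of the TMM-scaled library over tested genes. Precision is limited by 493406 to 952813 counts per library. Alternatives were DESeq2 1.42.0, limma 3.58.1 (voom), other scalings, other filters, a replicate block and each library left out. Tested on simulated data for the comparison of compound with DMSO (2300 genes), the fit found 55.2% of genes given a 2-fold change and 98.9% given a 4-fold one, with 5 wrong among 147 calls. Tables and figures used Python 3.11.15 and matplotlib 3.10.9.

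The members and gene lists were chosen with earlier results of these data known. Genes named are all members past the threshold, the 3 members with the most counts in each class, 14 fixed genes, the members nearest the mean of 5, list genes past the threshold and opposite-strand neighbours. Rnf141, Rnf20, Rnf40, Rnf123, Rnf220, Fbxl12, Rnf4, Ube2l3, Fbxl22, Fbxo24, the Trim43 copies, the members apart but not tested, and list genes that did not pass were named after their values were seen. Some genes that this rule or the lists name are not reported here.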

Additional observations from a re-analysis of the deposited data

How the results depend on the processing

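Rnf214, Fbxl13 and Hectd2 passed under all 13 alternatives, Rnf139 under 12, Usp16 under 10, Trim7 under 8 and Rnf181 under 5 of the 11 in which it was tested. With each library left out in turn, members higher numbered 2 to 7 and lower 1 to 4, and all tested genes higher 93 to 259 and lower 143 to 359. At an adjusted p of 0.01, 3 members were higher and 1 lower, and 80 and 128 of all tested genes. DESeq2's Wald test called 4 and 2 members, and 123 and 196 of all tested genes. Scaling by DESeq2 size factors or the upper quartile, and limma-voom, each called 5 and 2 members.

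The labels do not say whether the replicate numbers pair the samples. Deviations of same-numbered libraries correlated at -0.01, 0.02 and 0.02, and those of differently numbered ones at -0.055 to 0.044. With few counts in many genes, such values cannot decide whether the samples were paired. With the replicate number as a block, 6 members were higher and 2 lower, and 197 and 245 of all tested genes.

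Of 277 values of 22 named members under the alternatives, 246 kept direction and side of the threshold, 15 lost and 6 gained the call, and 10 changed sign, none of them past the threshold in any of those fits. Rnf146 ran from -0.135 (without DMSO replicate 3) to 0.363 with a library left out. Trim17 was -0.076 without a filter and ran from -0.082 to 0.073 with a library left out. Fbxw2 was -0.043 without a filter and ran from -0.077 to 0.206. Ube2g1 ran from -0.633 to 0.177. The cause was not tested. Low counts limit most members: 41 of 67 had a mean under 20.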
